A study of Arabidopsis thaliana with 8 samples.

Results

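The 26S proteasome subunit genes of Arabidopsis thaliana were followed in leaf protoplasts that had received a plasmid for DIV1, a MYB-related transcription factor of the DIVARICATA kind. The members are 54 genes fixed by identifier: the 20S core particle (PAA to PAG and PBA to PBG, 24 genes), the base and lid of the 19S regulatory particle (RPT and RPN, 16 and 13 genes) and the activator PA200 (1 gene). They were looked up among 2958 genes in the authors' deposited table, which lists the genes called between the groups at an adjusted p under 0.05. Of the 54 members, 41 were listed and 13 were not.

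Poly(A) RNA came from 8 libraries, 4 labelled div1 and 4 labelled ev. Both groups were Col-0 protoplasts, wall-less cells released by 90 min of enzyme treatment from the rosettes of plants grown for 4 weeks, then transfected with plasmid in polyethylene glycol and incubated overnight. The series describes the experiment as a TARGET assay for DIV1, which reads the effects of a transcription factor introduced transiently into cells. The meaning of ev is not spelled out (empty vector is the common reading in such assays), and the labels name neither the promoter driving DIV1 nor the share of cells that took up plasmid. Whether replicates are separate transfections is not stated, so the authors' p-values rest on a spread between libraries that may be technical. In such bulk samples a change in the cells' make-up and a change in RNA per cell cannot be told apart.

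The proteasome degrades proteins tagged with ubiquitin. Its core is a stack of rings: outer rings of alpha subunits gate the chamber, and inner rings of beta subunits carry the proteolytic sites. The base of the regulatory particle is built around a ring of RPT ATPases that unfold the substrate, with RPN subunits that dock ubiquitin and its carriers, and the lid removes ubiquitin before entry. In plants most subunits are encoded by a pair of paralogous genes, and loss of proteasome activity is known to raise the transcripts of many subunits together.

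DIV1 sets the direction of every value here, because the table does not name the numerator. DIV1 stood at 7.61 ± 0.88 by the authors' deposited table (log2 fold change ± its standard error, as throughout), and a positive change is taken to mean more transcript in div1. Plasmid-borne and chromosomal DIV1 transcripts are counted under 1 identifier. The table gives a mean normalized count over all libraries and no values per library, so depth per library is unknown and spread is known only through the standard errors. For the marker lists of leaf cell types, 0 of 5 mesophyll, 0 of 6 guard cell and epidermis and 0 of 3 vascular genes were listed. Of all tested genes, 16.4% were called in either direction, so lists this short say little. A missing row can mean that the gene was not tested or that it did not pass, so cell type cannot be checked from levels here.

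Genes called higher in the div1 libraries were found in the core, the base, the lid and PA200. Of the 54 members, 40 were called higher, 1 was called lower and 13 were not listed, so that 74.1% were called higher. For comparison, 9.14% of the 18010 genes tested were called higher, 7.28% were called lower and 16.4% were called in either direction. The number tested was recovered from the deposited p-values. The higher members lay within a narrow band, from 1.24-fold for RPT4b to 1.85-fold for RPT1a, with a median of 1.44-fold. Their median log2 fold change was 0.52, against 0.81 for all 1646 genes listed as higher, and 39 of the 40 lay below that value. No listed proteasome gene reached a 2-fold change (0 of 41), whereas 34.6% of all listed genes did. Genes enter the table only by passing the threshold, so these medians describe listed genes and not all 54 members. The genes compared were not matched for count or standard error. The median standard error was 0.13 for listed members and 0.19 for all listed genes, so smaller changes could be listed among members. That bears on the medians, the 2-fold shares and the shares called.

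**Figure D1:**
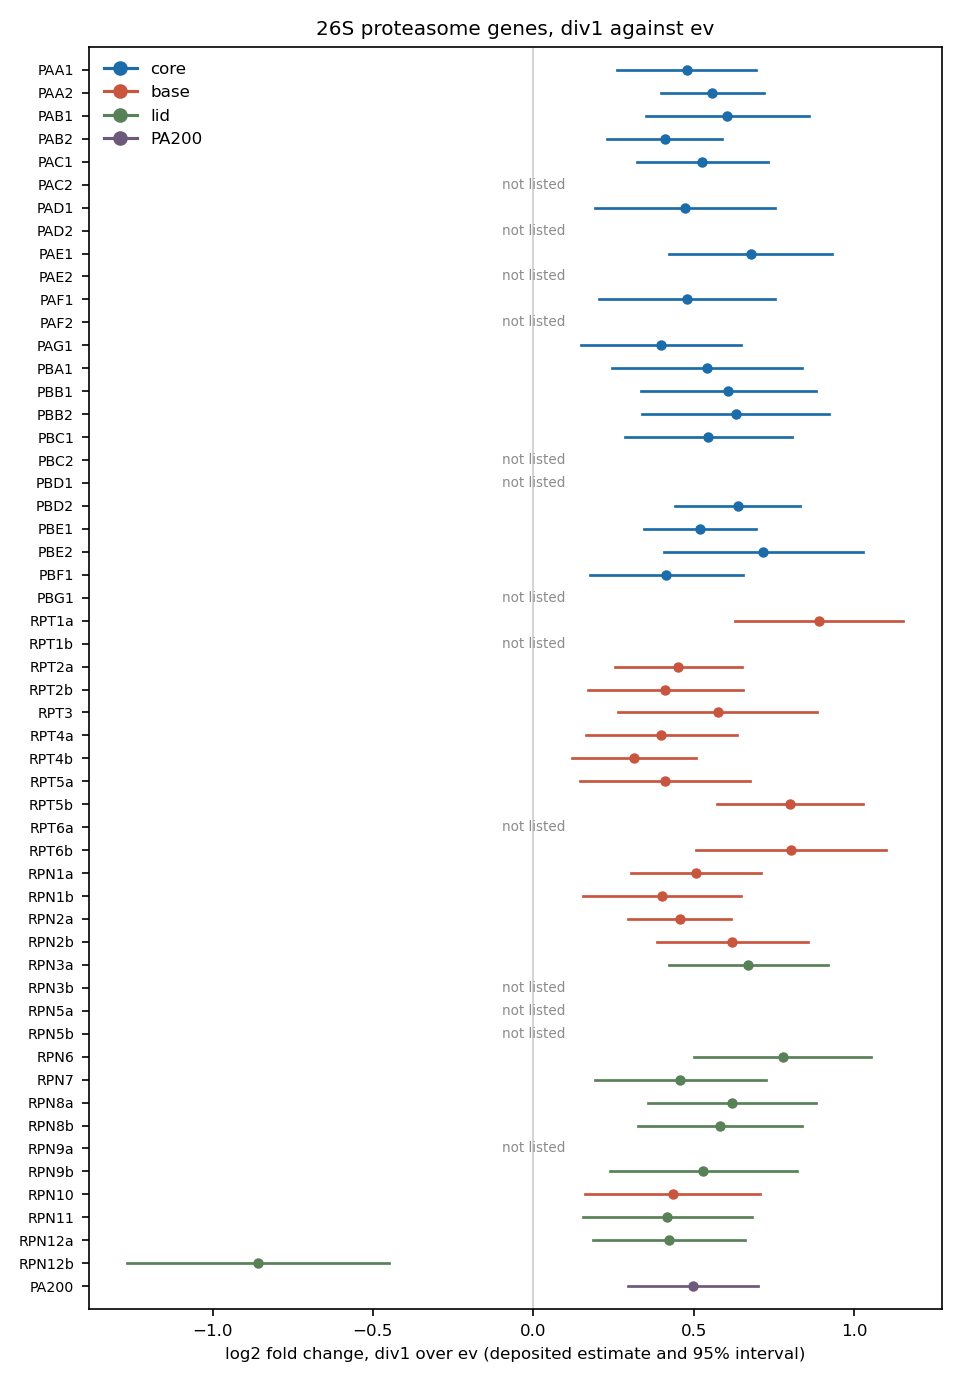
Log2 fold change of div1 over ev for each of the 54 proteasome genes, with points for the authors' deposited estimates and lines for 95% intervals computed from the deposited standard errors. Colours mark core, base, lid and PA200, and RPN10 is coloured as base. All listed genes lie between 0.31 and 0.89 except RPN12b at -0.86.

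The changes were small but fixed with fair precision. Standard errors of the 41 listed members ran from 0.08 to 0.21 on the log2 scale, with a median of 0.13, against 0.19 over all listed genes. For 37 of the 40 higher members, the 95% interval held the group's median log2 fold change of 0.52. These genes were chosen by their calls and the median is their own, so this does not show a shared size of change. The adjusted p was under 0.001 for 25 of the 41 and above 0.01 for 6 of them. Of all 2958 listed genes, at least 1229 and fewer than 1440 were under 0.001, by the ranks of AT2G03430 and AT1G67250. At least 1920 and fewer than 2043 were under 0.01, by the ranks of PAD1 and RPN1b. The listed members were also abundant, with a median mean count of 4006 normalized counts over all libraries, against 1092 for all listed genes, and 40 of the 41 above 1092. A Bonferroni adjustment over the 18010 tests left 15 members called higher and 0 lower. The tested genes left by that adjustment were not counted, but ranks by p-value bound their number. PAB1 passed at rank 821 and RPN8a did not at rank 857. At least 821 and fewer than 857 of the 18010 tested genes were thus left, in either direction. With these standard errors, the smallest test statistic in the table (2.64) corresponds to a log2 change of 0.22 to 0.55, or 0.34 at the members' median standard error. Smaller changes in unlisted genes with like errors could have gone uncalled, and so could larger ones where errors were larger or the gene was not tested.

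**Figure D2:**
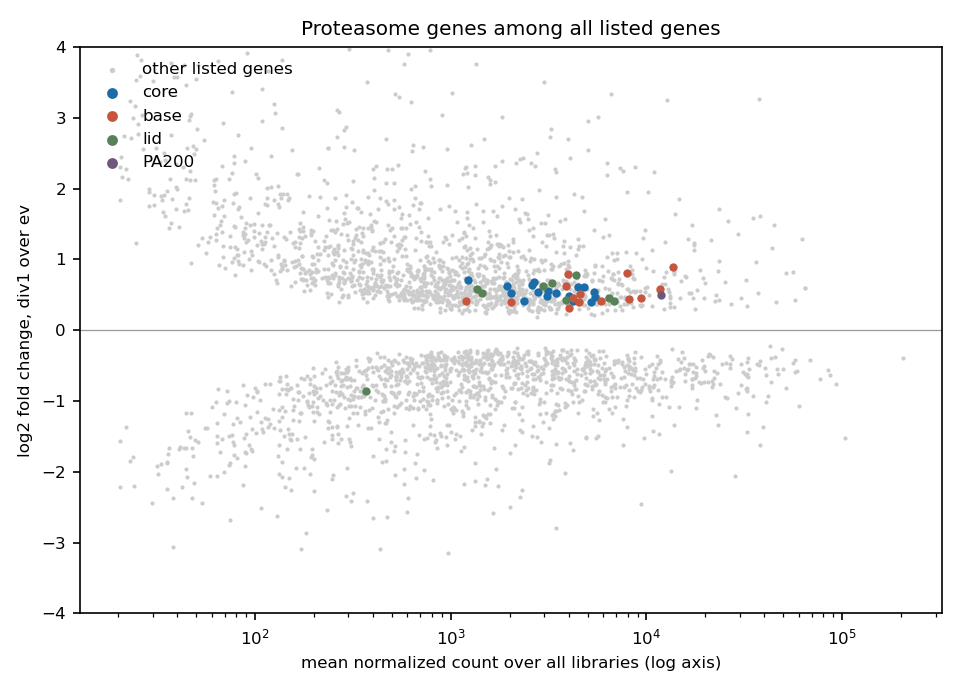
Log2 fold change of div1 over ev (vertical axis) against the mean normalized count over all libraries (horizontal log axis) for every gene in the authors' deposited table, with proteasome genes coloured by subcomplex. The 40 higher members cluster at high counts just above the lower edge of the listed changes. RPN12b lies apart from the other proteasome genes at 370 counts, and 45 genes beyond 4 on the log2 scale are not drawn.

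In the core particle, 17 of 24 genes were called higher, 0 lower and 7 were not listed. The alpha genes, whose products form the gated outer rings, had 9 of 13 called higher, with log2 fold changes of 0.40 to 0.68 by the authors' deposited table. PAA2 (AT2G05840), encoding an alpha1 subunit, had the smallest adjusted p of the core genes (4.58e-10), at 0.56 ± 0.08 (log2) by the authors' deposited table. Its estimated means were 3730 normalized counts in div1 and 2533 in ev. PAA1 (AT5G35590), the other alpha1 gene, was at 0.48 ± 0.11, and the alpha2 genes PAB1 (AT1G16470) and PAB2 (AT1G79210) were at 0.61 ± 0.13 and 0.41 ± 0.09 as log2 estimates of the authors' deposited table. PAE1 (AT1G53850, alpha5) had the largest change of the alpha genes, 0.68 ± 0.13 (log2) by the authors' deposited table, with estimated means of 3289 normalized counts in div1 and 2056 in ev. At the other end stood PAG1 (AT2G27020), the only alpha7 gene, at 0.40 ± 0.13 (log2) by the authors' deposited table. PAF1 (AT5G42790), an alpha6 gene also named for arsenic tolerance (ARS5), was at 0.48 ± 0.14, PAD1 (AT3G51260, alpha4) at 0.47 ± 0.14, and PAC1 (AT3G22110, alpha3) at 0.53 ± 0.10, as log2 estimates of the authors' deposited table.

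Genes for all 3 proteolytically active kinds of beta subunit were called higher. PBA1 (AT4G31300), the only gene for beta1, which cuts after acidic residues, was at 0.54 ± 0.15 (log2) by the authors' deposited table. Both genes for beta2, the trypsin-like subunit, rose, PBB1 (AT3G27430) at 0.61 ± 0.14 and PBB2 (AT5G40580) at 0.63 ± 0.15 (log2) by the authors' deposited table. Both genes for beta5, the chymotrypsin-like subunit, rose as well. PBE2 (AT3G26340) had the largest change in the core, 0.72 ± 0.16, and PBE1 (AT1G13060) was at 0.52 ± 0.09 as log2 estimates of the authors' deposited table. PBE2 was the less abundant gene, with estimated means of 1520 normalized counts in div1 and 925 in ev, while PBE1 had 4072 in div1 and 2840 in ev. Of the structural beta genes, PBC1 (AT1G21720, beta3), PBD2 (AT4G14800, beta4) and PBF1 (AT3G60820, beta6) had log2 changes of 0.55 ± 0.13, 0.64 ± 0.10 and 0.41 ± 0.12 by the authors' deposited table. PBG1 (AT1G56450), the only beta7 gene, was not listed.

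In the base, 14 of 16 genes were called higher, 0 lower and 2 were not listed. RPT1a (AT1G53750) led all members, with a log2 change of 0.89 ± 0.13 (adjusted p 1.49e-09) by the authors' deposited table and estimated means of 17751 normalized counts in div1 and 9572 in ev. The next 2 were also ATPase genes. RPT6b (AT5G20000) was at 0.80 ± 0.15 and RPT5b (AT1G09100) at 0.80 ± 0.12 on the log2 scale, and RPT5b had the smallest adjusted p of all members, 3.69e-10, by the authors' deposited table. RPT5b ranked 282 of 2958 listed genes by p-value, and 5 members lay among the first 500. RPT3 (AT5G58290), a single gene, was at 0.58 ± 0.16, RPT2a (AT4G29040), known for a role in meristem upkeep, was at 0.45 ± 0.10, and RPT4b (AT1G45000) had the smallest change of all higher members, 0.31 ± 0.10 as log2 estimates of the authors' deposited table. RPT2b (AT2G20140), RPT4a (AT5G43010) and RPT5a (AT3G05530) were at 0.41 ± 0.12, 0.40 ± 0.12 and 0.41 ± 0.13 (log2), and RPT5a had the largest adjusted p of the listed members, 0.0186, by the authors' deposited table. The ATPase genes thus held both ends of the band. All 5 non-ATPase genes of the base were called. RPN2b (AT1G04810) and RPN2a (AT2G32730), which encode a large scaffold subunit, were at 0.62 ± 0.12 and 0.46 ± 0.08, and RPN1a (AT2G20580) and RPN1b (AT4G28470), whose product docks ubiquitin carriers, at 0.51 ± 0.10 and 0.40 ± 0.13 as log2 estimates of the authors' deposited table. The ubiquitin receptor gene RPN10 (AT4G38630) was at 0.43 ± 0.14 (log2) by the authors' deposited table.

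In the lid, 8 of 13 genes were called higher, 1 lower and 4 were not listed. RPN6 (AT1G29150), a scaffold subunit that clamps lid to core and is a single gene, changed most among lid genes, at 0.78 ± 0.14 (log2) by the authors' deposited table. Its estimated means were 5482 normalized counts in div1 and 3198 in ev. RPN3a (AT1G20200) was at 0.67 ± 0.13, and RPN8a (AT5G05780), also known from a leaf polarity mutant, and RPN8b (AT3G11270) at 0.62 ± 0.13 and 0.58 ± 0.13 as log2 estimates of the authors' deposited table. RPN11 (AT5G23540), the metalloprotease that strips ubiquitin chains, was among the smaller changes, at 0.42 ± 0.13 (log2) by the authors' deposited table. RPN7 (AT4G24820), RPN9b (AT4G19006) and RPN12a (AT1G64520) had log2 changes of 0.46 ± 0.14, 0.53 ± 0.15 and 0.42 ± 0.12 by the authors' deposited table. PA200 (AT3G13330), a large activator that caps the core without ATP, was at 0.50 ± 0.10 (log2, adjusted p 3.1e-05) by the authors' deposited table.

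Set side by side, the median log2 fold change of the higher genes was 0.54 in the core, 0.45 in the base and 0.56 in the lid, and the ranges overlapped (0.40 to 0.72, 0.31 to 0.89 and 0.42 to 0.78). The shares called higher were 70.8%, 87.5% and 61.5%. The differences between subcomplexes were not tested, since the table gives no values for unlisted genes. Without genes that overlap another annotated gene, higher calls numbered 12 in the core, 11 in the base and 4 in the lid. These are counts out of fewer genes. The only others left were PAC2, PAE2 and PBC2 in the core and RPT1b and RPT6a in the base, all unlisted. In the lid they were RPN9a, unlisted, and RPN12b, called lower.

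RPN12b (AT5G42040) stood alone. Its log2 change was -0.86 ± 0.21 (adjusted p 5.93e-04) by the authors' deposited table, with estimated means of 263 normalized counts in div1 and 477 in ev. Its paralog RPN12a, which encodes a lid subunit linked to cytokinin responses, was called in the other direction, with estimated means of 4448 normalized counts in div1 and 3318 in ev. RPN12a was 10.5 times as abundant by mean count, RPN12b had the lowest mean count of the listed members, and its coding sequence is the shorter, 702 against 804 bases. Over the 702 aligned bases the genes were 82.8% identical. RPN12b overlaps no annotated gene, while RPN12a overlaps 1.

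Calling each subunit by its genes, 30 of 32 subunits, PA200 included, had at least 1 gene called higher. These were 13 of 14 in the core, 9 of 9 in the base and 7 of 8 in the lid. The exceptions were beta7, with PBG1, and RPN5, for which neither RPN5a nor RPN5b was listed. All 3 of these genes overlap another annotated gene, as do 12 of the 41 listed members. The neighbours that these 3 genes overlap were not listed. A subunit with 2 genes has 2 chances of a call. Shares over all subunits thus cannot be set against the 9.14% of tested genes called higher, and none was computed for other genes. Of 10 subunits with 1 gene, 9 were called higher. Of 22 subunits with 2 genes, both were called higher in 10, 1 higher and the other unlisted in 10, 1 higher and 1 lower in 1 (RPN12), and neither was listed in 1 (RPN5).

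Both paralogs were called higher in 10 pairs, a choice that itself limits how far apart their changes can lie. Across those pairs the difference in log2 fold change ran from 0.02 (PBB2 over PBB1) to 0.39 (RPT5b over RPT5a). Standard errors of these differences take the 2 estimates as independent, because their covariance is not in the table. For RPT5 the 95% interval of the difference was 0.04 to 0.74, and it included 0 when widened for 11 pairs (-0.11 to 0.90). In the other 9 pairs the unwidened interval included 0, but these intervals were about as wide as the changes themselves (-0.38 to 0.42 for beta2 and -0.16 to 0.55 for beta5), so that they do not show the paralogs to change alike. For RPN12 the difference was 1.28, with a 95% interval of 0.81 to 1.75 that stayed above 0 when widened (0.60 to 1.96). RPT2a and RPT2b, whose mean counts differed 7.8-fold, had log2 fold changes of 0.45 and 0.41 by the authors' deposited table.

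**Figure D3:**
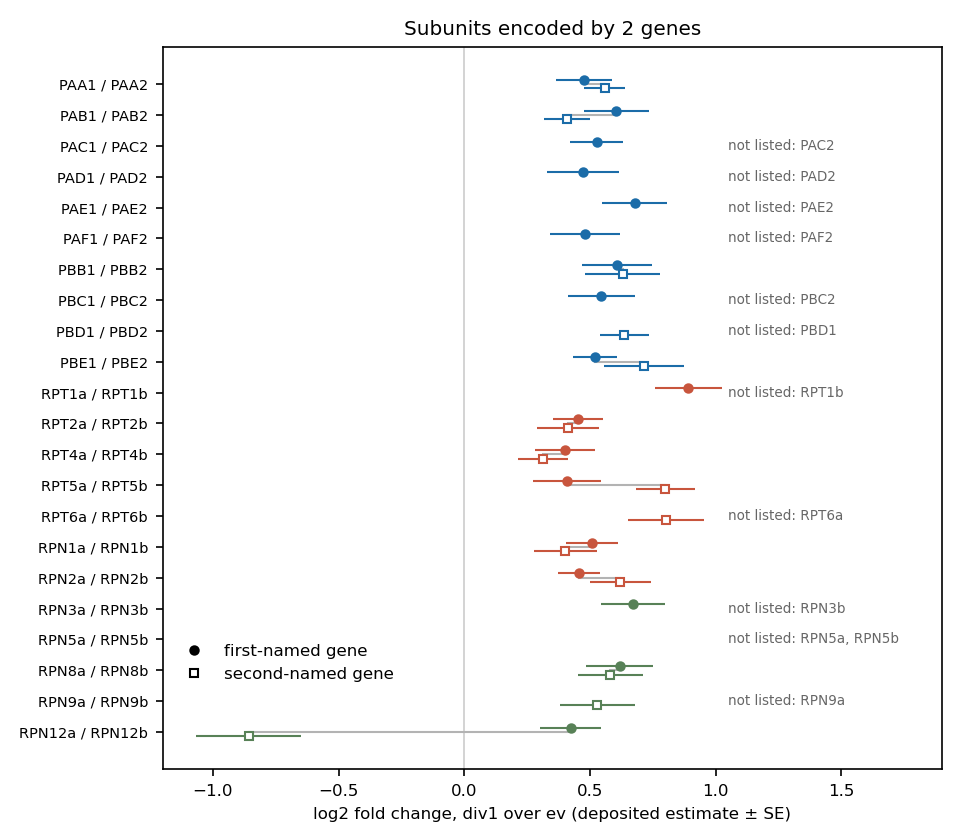
Log2 fold change of div1 over ev for the 22 subunits encoded by 2 genes, with points for the authors' deposited estimates and bars for their SE; filled circles are the first-named gene and open squares the second. Of the 11 pairs with both genes listed, 10 lie together on the higher side and RPN12 is split at 0.42 and -0.86.

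The unlisted partner was in most of these split pairs the second-named gene: PAC2, PAD2, PAE2, PAF2, PBC2, RPT1b and RPN3b, while PBD1, RPT6a and RPN9a were the first-named ones. An unlisted gene is not shown to differ from its listed partner. RPT6a and RPT6b are neighbours on chromosome 5, are 94.4% identical over 1260 coding bases and share an identical run of 104 bases, the longest of any pair. How reads matching both were counted is not given in the sources used here, so the call of RPT6b without RPT6a is uncertain. In all 22 pairs the coding identity lay between 80.3% and 94.4%.

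Levels differed between genes, also between paralogs for 1 subunit. Per kilobase of the longest annotated transcript, the mean normalized count of the higher genes ran from 675 (RPT2b) to 6886 (RPT1a), with a median of 2361. RPT2a, which encodes the same subunit as RPT2b, stood at 5726 normalized counts per kilobase. Medians on this scale were 2571 for core, 2489 for base and 2076 for lid genes. RPN11 led the lid at 5116 and PBA1 the core at 4903 normalized counts per kilobase.

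**Figure D4:**
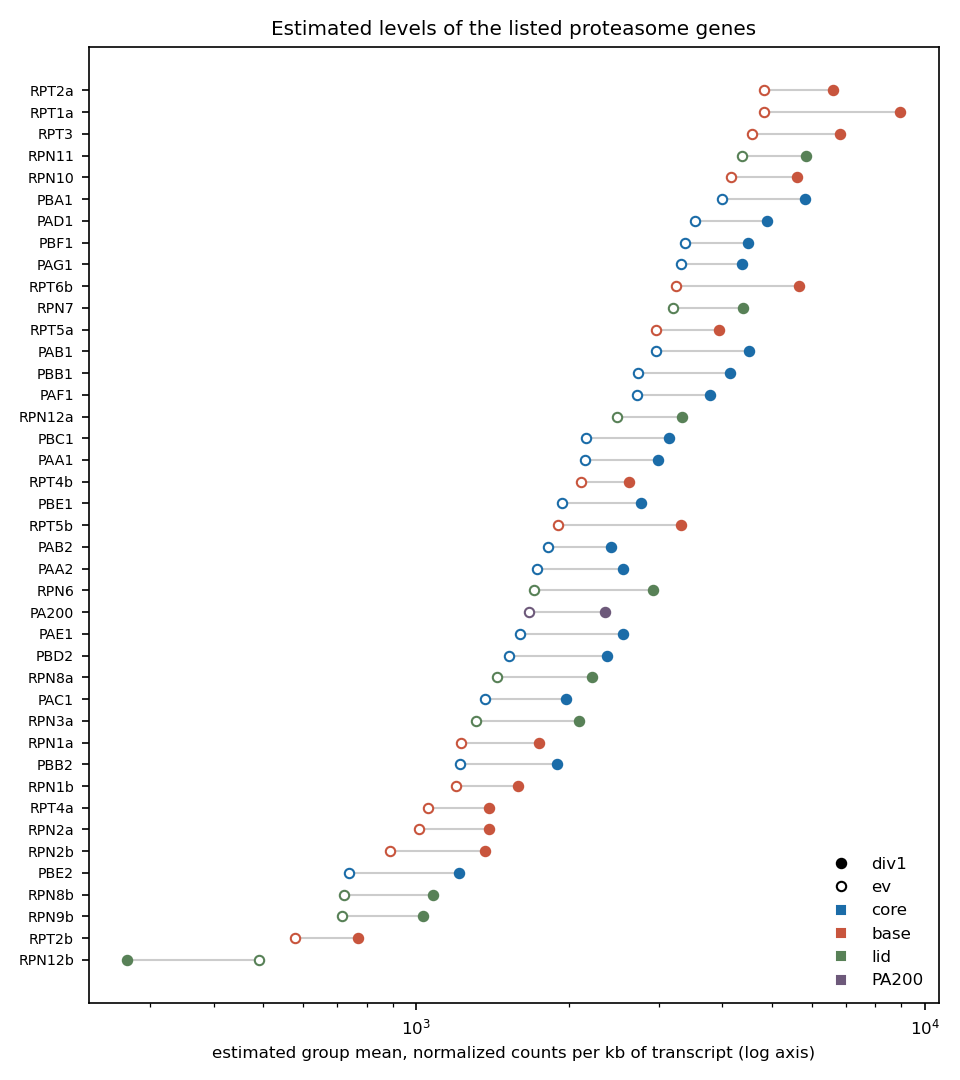
Estimated group means of the 41 listed proteasome genes in normalized counts per kilobase of transcript (log axis), filled for div1 and open for ev, ordered by the ev value. The filled point lies right of the open one for every gene except RPN12b, at the bottom.

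The library kit does not mark strand, and 12 of the 41 listed members overlap another annotated gene, among them RPT1a, RPT5b and PBD2. Together they overlap 14 neighbours, of which 0 were listed in the authors' deposited table. Among the 7 unlisted members that overlap a gene, PAD2 and PBD1 overlap listed neighbours, AT5G66130 at -0.58 and AT3G22620 at 1.52 (log2) by the authors' deposited table; these neighbours were named after their values were seen. Of the 35 members that overlap no gene, 28 were called higher and 1 lower. The 41 listed members are spread over all chromosomes, with 12, 5, 8, 7 and 9 on chromosomes 1 to 5.

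Many of the promoters held the same short element. The bases TGGGC, read on either strand (GCCCA on the other), form a proteasome-related element described in Arabidopsis and are also part of the site II element of many housekeeping genes. In windows of 250 bases before to 50 after the annotated start (RefSeq, TAIR10.1), they occurred in 33 of 54 members (61.1%), against 26% of 27438 protein-coding genes. Members called higher had them in 25 of 40 (62.5%), unlisted members in 7 of 13 (53.8%), and all genes listed as higher in 27.3%. In windows ending at the start the order of the first 2 shares turned, with 19 of 40 higher members (47.5%), 7 of 13 unlisted members (53.8%) and 22.7% of all protein-coding genes. Copies recurred, and 26 members held at least 2. The element was thus found in listed and unlisted members alike, and its match is a description of the window, not of a bound site.

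The 150 bases before the start are shown for the member with the largest listed change in base, lid and core, for the RPN12 pair with its opposite changes, and for PAC2 as an unlisted member. Each is written 5′ to 3′ on the gene's strand, with TGGGC or GCCCA in capitals, at chr1:20068501-20068650 (minus strand) for RPT1a, chr1:10180152-10180301 (plus) for RPN6, chr3:9652937-9653086 (minus) for PBE2, chr5:16814750-16814899 (minus) for RPN12b, chr1:23956119-23956268 (plus) for RPN12a and chr4:8648682-8648831 (plus) for PAC2, all in TAIR10.1.
RPT1a: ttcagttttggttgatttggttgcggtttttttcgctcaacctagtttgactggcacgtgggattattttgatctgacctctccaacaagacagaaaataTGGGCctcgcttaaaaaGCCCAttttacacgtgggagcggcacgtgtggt
RPN6: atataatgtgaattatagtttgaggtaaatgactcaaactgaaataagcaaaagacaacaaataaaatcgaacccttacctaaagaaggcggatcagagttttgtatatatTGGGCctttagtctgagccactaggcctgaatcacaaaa
PBE2: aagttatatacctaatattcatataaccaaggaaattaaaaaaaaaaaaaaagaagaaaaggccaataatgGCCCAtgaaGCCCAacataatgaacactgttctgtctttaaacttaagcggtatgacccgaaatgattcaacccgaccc
RPN12b: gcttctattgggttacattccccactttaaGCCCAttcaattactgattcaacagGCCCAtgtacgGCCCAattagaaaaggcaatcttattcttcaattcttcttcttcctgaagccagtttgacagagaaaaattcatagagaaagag
RPN12a: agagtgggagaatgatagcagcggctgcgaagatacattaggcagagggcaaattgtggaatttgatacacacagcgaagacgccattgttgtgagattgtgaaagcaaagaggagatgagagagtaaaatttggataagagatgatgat
PAC2: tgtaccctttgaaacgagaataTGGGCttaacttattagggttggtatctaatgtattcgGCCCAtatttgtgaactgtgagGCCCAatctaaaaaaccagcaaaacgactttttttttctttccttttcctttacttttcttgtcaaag
RPN12b, the member called lower, holds 3 copies in this stretch and RPN12a, called higher, holds 0. PAC2, which was not listed, also holds 3, while RPT1a and PBE2 hold 2 and RPN6 holds 1. Over the whole window of 250 bases before to 50 after the start, PBE2 holds 4 copies and RPN12a 1, and the counts of the other 4 genes are as in the stretch shown. Among these 6 genes, copies were thus seen in members called higher, called lower and not listed.

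Words of the I-box type, which DIVARICATA-type factors are known to bind, were looked for in the same windows. Read on either strand, GATAAG occurred in 7 of 40 higher members (17.5%), 2 of 13 unlisted ones (15.4%), 22.6% of all genes listed as higher and 14.7% of all protein-coding genes. The shorter word GATAA, part of the longer one and also read on either strand, was in 25 of 40 higher members (62.5%) and 5 of 13 unlisted ones (38.5%), against 71.7% of all genes listed as higher and 60.8% of all protein-coding genes. The word TATCC, on either strand, was in 17 of 40 higher members (42.5%), 2 of 13 unlisted ones (15.4%), against 42.1% of all genes listed as higher and 33.4% of all protein-coding genes. For TATCC the share in higher members stood near that of all genes listed as higher. For GATAAG and GATAA it lay below that share and nearer to that of all protein-coding genes. These shares were not tested.

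Genes that work beside the proteasome were called in part. Across 8 lists with 55 genes, 12 were higher (21.8%), 2 lower and 41 not listed, against 9.14% called higher and 7.28% called lower among all tested genes. In the list of remaining subunits and assembly factors, 3 of 10 were higher and 0 lower. These were AT1G67250, annotated as the maturation factor UMP1, which acts in core assembly, at 0.60 ± 0.16, the ankyrin repeat gene AT2G03430 at 0.54 ± 0.13, and AT3G53970 (PTRE1), annotated as similar to a proteasome inhibitor, at 0.38 ± 0.08 (log2) by the authors' deposited table. The ubiquitin receptor gene RPN13 and both DSS1 genes, further parts of the regulatory particle, were not listed.

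The COP9 signalosome, a complex built like the lid that removes NEDD8 from cullins, had 1 of 10 genes called higher, CSN3 at 0.48 ± 0.13 (log2) by the authors' deposited table, and 0 lower. In the lid 61.5% of genes were called higher, against 10% in the COP9 signalosome and 9.14% of all tested genes. The difference between these lists was not tested.

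Of the 8 genes for CDC48, the segregase that pulls ubiquitylated proteins out of complexes, and its cofactors, 2 were higher (25%) and 1 lower, beside 9.14% higher and 7.28% lower over all tested genes. AT3G53230, annotated as CDC48B, had the largest change of any related gene, 1.24 ± 0.20, and CDC48A was at 0.68 ± 0.13 (log2) by the authors' deposited table. Both exceeded the proteasome median of 0.52. AT4G38930, of the UFD1 cofactor family, was at -0.28 ± 0.10 (log2) by the authors' deposited table. Among carriers of ubiquitylated proteins, 2 of 7 (28.6%) were higher, DDI1 at 0.50 ± 0.11 and RAD23D at 0.24 ± 0.09 (log2) by the authors' deposited table.

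For ubiquitin itself and its activating enzymes, 3 of 7 genes (42.9%, against 9.14% of all tested genes) were higher and 0 lower, the polyubiquitin genes UBQ14 at 0.63 ± 0.13 and UBQ10 at 0.34 ± 0.10 and the E1 gene UBA1 at 0.38 ± 0.10 (log2) by the authors' deposited table. Near-identical ubiquitin repeats may share reads, so single polyubiquitin genes are uncertain. Of the 4 deubiquitinases of the proteasome, UBP6 was higher (25% of the list, against 9.14% of all tested genes) and the other 3 were not listed, with UBP6 at 0.33 ± 0.12 (log2) by the authors' deposited table. Of the HECT ubiquitin ligase genes, 0 of 7 were listed, against 16.4% of all tested genes called in either direction.

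NAC053 and NAC078 are transcription factors known to activate proteasome genes when the proteasome is impaired. NAC053 was called lower, at -0.50 ± 0.18 (log2, adjusted p 0.0372) by the authors' deposited table, with a mean count of 3026 normalized counts. NAC078 was not listed. The call of NAC053 did not pass an adjusted p of 0.01.

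**Figure D5:**
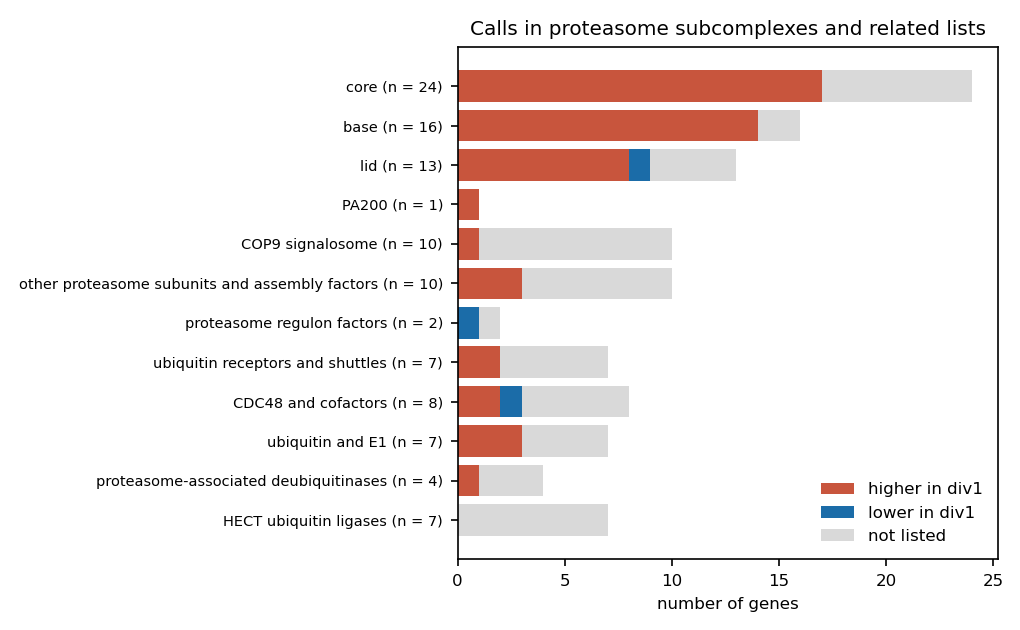
Number of genes called higher in div1, called lower in div1 or not listed in the authors' deposited table, for the proteasome subcomplexes (top 4 bars) and 8 related lists. Higher calls fill most of the core, base and lid bars and at most 3 genes of any related list.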

How the data were processed

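RNA was sequenced from 8 libraries, grouped by sample title as 4 div1 and 4 ev. The TAIR10 build, the trimmer fastp (0.21.0), the aligner HISAT2, the read counter featureCounts (2.0.1) and DESeq2 are named, without settings, per the submitters' processing notes. Per the file headers, each called gene in the authors' deposited table has a signal (its normalized count averaged over the libraries), a log2 fold change with standard error, their ratio as a score (Wald statistic), and raw and adjusted p-values. No values per library were used, so depth per library is unknown and no test over samples was run; calls are the authors', from DESeq2.

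The number of tested genes was recovered as the largest value of adjusted p times rank over p, a step tested on simulated data. Each group's mean was computed from the average count and the fold, with 4 libraries a group; intervals are at 95%. Members, lists and motifs were chosen with earlier results of these data known. All listed members and related genes are named, and others are counted. All 54 identifiers matched RefSeq TAIR10.1, the source of coordinates, overlaps, lengths and promoters; 13 carry no symbol there and bear their usual names. Paralog coding sequences were aligned globally with Biopython 1.88. Tables were handled with pandas 2.3.3 in Python 3.11.15 and drawn with matplotlib 3.10.9.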

Additional observations from a re-analysis of the deposited data

How the results depend on the processing

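The alternatives keep the deposited fold changes, whose direction is read from DIV1, so only the counts can move. The share of all tested genes called was computed only at an adjusted p under 0.05. For an adjusted p under 0.01 and for Bonferroni, ranks by p-value bound it, counting both directions. PAD1 passed 0.01 at rank 1920 and RPN1b did not at rank 2043. PAB1 passed Bonferroni at rank 821 and RPN8a did not at rank 857. These ranks stand against 18010 tested genes. At 1.5-fold the share was not computed, but 34.6% of all listed genes reached 2-fold. Counts without overlapping genes have no background beside them. At an adjusted p under 0.01 the counts for members, subcomplexes, subunits and pairs stayed within 1.5 times, while NAC053 (0 lower calls in its list), UFD1 (0 lower) and the deubiquitinases (0 higher) lost their calls and the ubiquitin carriers kept 1. With Bonferroni adjustment over the 18010 tests, 15 members were higher and 0 lower, with 6 higher in the core, 6 in the base, 2 in the lid (0 lower), 14 subunits with a higher gene and 1 pair with both; the assembly, COP9 and deubiquitinase lists had 0 higher, the NAC and CDC48 lists 0 lower, and the ubiquitin and carrier lists 1 higher each. Without genes that overlap another, the lid had 4 higher calls and the carriers 1, out of fewer genes in each list. The only other lid genes left were RPN9a and RPN12b. At a listed change of at least 1.5-fold, 13 members were higher, with 6 in the core, 4 in the base, 3 in the lid and 0 for PA200, 12 subunits and 1 pair; the assembly and ubiquitin lists had 1 higher each, the COP9, carrier and deubiquitinase lists 0 higher, and the NAC and CDC48 lists 0 lower. In windows ending at the start, unlisted members with GATAAG numbered 1 and with GATAA 3, and TGGGC was in 47.5% of higher and 53.8% of unlisted members. Counting RPN10 with the lid moved no count by over 1.5 times. No paired analysis was possible because the table holds no values per library, and for the same reason leaving out replicates, other tools, normalizations and count filters were not run. With the listed members' standard errors, a log2 change under 0.22 to 0.55 would not have been called; the errors of unlisted genes are unknown, so larger changes may also be missing.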
